A study of Mus musculus with 9 samples.

Results

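The genes described here are 10 genes of the MHC class I antigen presentation pathway, measured by total RNA-seq in mouse embryonic fibroblasts (MEF). They were taken by symbol as the rows H2-K1, H2-D1, B2m, Tap1, Tap2, Tapbp, Psmb8, Psmb9, Nlrc5 and Erap1 of a table of 47937 genes, and all 10 were among the 15540 genes that passed the filter on low counts.

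The 9 libraries came from 3 lines, with 3 biological replicates of each. WT MEF had the full set of KMTs, histone methyltransferases that here act on lysine 9 of histone H3 (H3K9). Di- and trimethylated H3K9 are marks of repressed chromatin. S1S2 MEF carried a knockout of Suv39h1 and Suv39h2, and G9Gl MEF a knockout of G9a and Glp, whose genes are Ehmt2 and Ehmt1. The comparisons ask how RNA levels differ after loss of one KMT pair or the other. Per the study's methods, the lines descend from E1c, a MEF clone with a conditional Eset1 allele and tamoxifen-inducible Cre, and a puromycin-selected CreERT2 construct was put back after editing. The same methods name a single CRISPR/Cas9 clone for each mutant, B1 for S1S2 and H7 for G9Gl, picked by western blot for the missing proteins. Genotype and clone therefore cannot be told apart, and p-values measure the spread between cultures of a line. Whether these cultures had received tamoxifen is not given in the sources used here.

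MHC class I molecules display peptides from inside the cell to cytotoxic T cells. Proteasomes cut proteins into peptides, the Tap1-Tap2 transporter carries the peptides into the endoplasmic reticulum, Erap1 trims them, and tapasin, the product of Tapbp, helps to load them onto a heavy chain (H2-K1 or H2-D1) paired with the light chain β2-microglobulin (B2m). Psmb8 and Psmb9 encode catalytic subunits that replace the constitutive ones in the immunoproteasome, and Nlrc5 encodes the transactivator of class I genes. Most cells express the pathway at a basal level, and interferons raise it.

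Class I promoters are known for a module of spaced elements that includes an X2 box with the core TGACG and a Y box with the core ATTGG, at which CREB/ATF and NF-Y factors and Nlrc5 act. RefSeq promoter windows of build GRCm38.p6, from 250 bases before to 50 bases after an annotated start, were at hand for 8 of the 10 genes, and Nlrc5 and Tap2 had none. In the windows of H2-K1, H2-D1 and B2m the cores lay in the same orientation exactly 20 bases apart. The spacing was chosen after the windows of H2-K1 and B2m had been read. The upstream stretches of H2-K1 (chr17:34000358-34000527, minus strand) and B2m (chr2:122147507-122147676, plus strand), from 180 to 11 bases before the first listed start, are printed because they show the elements in their order. Capitals mark exact matches to TGACG and ATTGG of the spaced pair, to the kappaB letters GGGATTCCC, to the interferon regulatory factor core AANNGAAA and to the longer interferon response core GAAANNGAAA, each searched on both strands. The longer core contains the shorter.
H2-K1: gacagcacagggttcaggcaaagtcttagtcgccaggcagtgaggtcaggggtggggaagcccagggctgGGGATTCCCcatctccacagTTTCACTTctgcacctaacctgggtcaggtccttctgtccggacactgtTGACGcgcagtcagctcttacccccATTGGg
B2m: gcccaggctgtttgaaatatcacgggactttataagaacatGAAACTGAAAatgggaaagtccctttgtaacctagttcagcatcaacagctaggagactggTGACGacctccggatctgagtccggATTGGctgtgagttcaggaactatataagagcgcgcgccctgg

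The 30 bases of the spaced pair are set side by side for H2-D1 (chr17:35262993-35263022, plus strand) and for H2-M3 (chr17:37270188-37270217, plus strand), a further class I heavy chain gene whose values are given below. The 10 bases of the cores are the same in all 4 genes because the stretches were chosen by them. Over the 20 bases between the cores H2-K1 was identical to H2-D1 at 13 positions, to H2-M3 at 7 and to B2m at 3, H2-D1 to H2-M3 at 9 and to B2m at 2, and B2m to H2-M3 at 5.
H2-D1: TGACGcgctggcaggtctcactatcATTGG
H2-M3: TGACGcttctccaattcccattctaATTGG

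The libraries held between 21319778 and 32157623 gene counts, and the S1S2 libraries were the shallowest. The targeted genes still gave transcripts in the mutants: Suv39h1 fell in S1S2 (log2 fold change -1.36) while Suv39h2 rose (0.70), and Ehmt2 and Ehmt1 fell in G9Gl (-1.20 and -1.04). The clones had been picked for loss of protein, so these transcript levels are no check of the labels, and Suv39h2 RNA was not lost from the libraries labelled S1S2. Of 10 leukocyte markers, Adgre1, Cd3e and Tyrobp had no count in any library and the list summed to 3.28 to 4.96 CPM (counts scaled to library size), nearly all of it Cd68. The few counts of the pan-leukocyte gene Ptprc all fell in G9Gl (2, 2 and 4, and 0 in the 6 other libraries), and Csf1r had 3, 10 and 8 counts in G9Gl against 1 in each WT library and 0 to 1 in S1S2. The fibroblast markers summed to between 9850 and 11344 CPM in WT, 7376 and 7439 CPM in S1S2, and 7848 and 8692 CPM in G9Gl. Of the 9, 6 were called lower in S1S2 (66.7%, against 4.34% of all tested genes), among them the collagen genes Col1a2 and Col3a1. In G9Gl 2 were called lower and 2 higher (22.2% each, against 3.40% and 6.77%). The rule for a call is given below. The 5 epithelial markers summed to 2.42 to 3.26 CPM in WT, 24.5 to 28.1 in S1S2 and 9.97 to 15.7 in G9Gl, which was mostly Krt19, and the 5 endothelial markers summed to 0.123 to 0.193 CPM in WT, 1.55 to 1.75 in S1S2 and 0.790 to 2.35 in G9Gl. Of the epithelial genes, Krt19 was called higher in both mutants and Krt8 in S1S2 only. Krt8 had 104 to 113 counts per library in S1S2, 3 to 6 in WT and 4 to 8 in G9Gl. Of the endothelial genes, Kdr was called higher in S1S2 (28 to 29 counts per library, against 0 to 2 in WT) and Cdh5 in G9Gl (14 to 43, against 0 in WT). The part of these shifts in the results below was not tested.

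Most of the 10 genes were higher in G9Gl MEF than in WT and S1S2 MEF. A gene is said to have risen or fallen where its Benjamini-Hochberg adjusted p over all tested genes was at most 0.01 (edgeR quasi-likelihood test), and to be called where the fold change was also at least 2. In G9Gl against WT, 8 of the 10 genes were called higher, against 6.77% of all tested genes, and 9 rose, against 19.0% of all tested genes. Tapbp was the exception (log2 fold change 0.13, adjusted p = 0.0466), and without G9Gl replicate 1 its value was 0.081. In S1S2 against WT, Tap1 and Nlrc5 were called higher, against 4.66% of all tested genes, and 7 of the 10 rose, against 20.3%. The median log2 fold change of the 10 genes was 2.29 in G9Gl and 0.65 in S1S2, where the median of all tested genes was -0.0067 and -0.0032. None of the 10 fell in either mutant, by edgeR or DESeq2 or at an unadjusted p under 0.05. Of all tested genes, 4.34% were called lower and 17.6% fell in S1S2, and 3.40% were called lower and 16.0% fell in G9Gl.

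**Figure D1:**
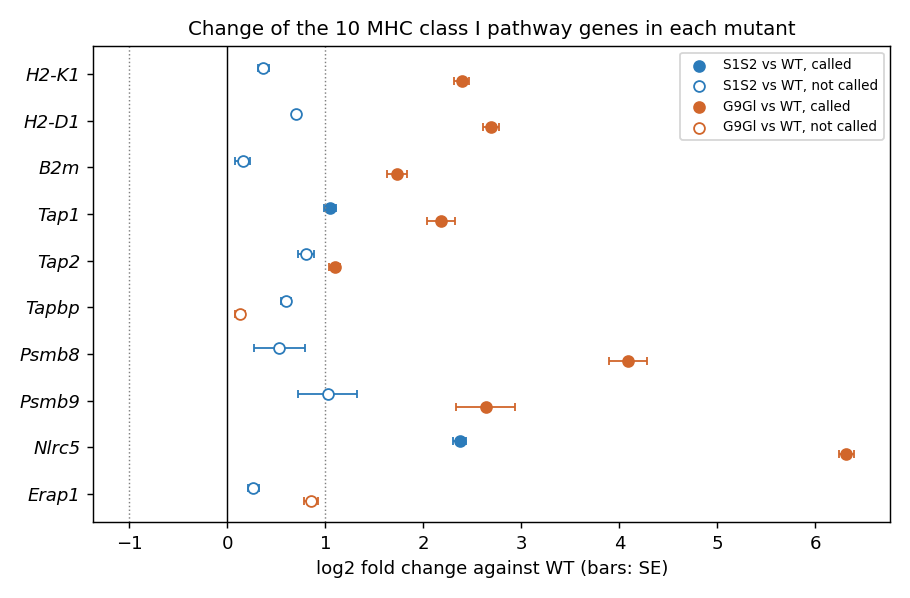
Log2 fold change against WT (x axis) of each of the 10 genes (rows) in S1S2 (blue) and G9Gl (orange), with bars for the standard error, filled points for called genes and dotted lines at a fold change of 2. The G9Gl points lie to the right of the S1S2 points for every gene but Tapbp, and Nlrc5 reaches 6.32.

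Since these comparisons share their WT libraries, G9Gl was also set directly against S1S2. In G9Gl against S1S2, 7 of the 10 genes were called higher, against 7.97% of all tested genes, and 8 rose, against 21.6%. Tapbp alone fell (log2 fold change -0.46, adjusted p = 6.23e-07), where 21.1% of all tested genes fell. Tap2 was the remaining gene, with a log2 fold change of 0.29 and an adjusted p of 0.0108, which ran from 0.00454 without S1S2 replicate 3 to 0.0534 without S1S2 replicate 2 under the alternatives and was under 0.01 in 5 of them.

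Nlrc5 (ENSMUSG00000074151.12, chromosome 8, 94434356 to 94527272, GRCm38) showed the largest change of the 10 genes in each of the 3 comparisons. Its level was 0.861, 0.893 and 0.935 CPM in the WT libraries, 4.46, 4.99 and 4.42 CPM in S1S2, and 79.3, 67.9 and 68.2 CPM in G9Gl. The genotypes did not overlap, and the raw counts behind these levels went from 27 to 29 in WT over 94 to 137 in S1S2 to 1891 to 2259 in G9Gl. In S1S2 the rise was 5.17-fold, or 2.37 on the log2 scale (SE 0.064, adjusted p = 1.04e-09). In G9Gl it was 79.8-fold, or 6.32 (SE 0.080, adjusted p = 1.53e-17). Between the mutants the log2 fold change was 3.95 (SE 0.092, adjusted p = 2.02e-16). At most 0.0462% of the 75-base stretches of Nlrc5 transcripts occurred in another annotated gene, so few of its reads could belong elsewhere.

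The heavy chain genes were both among the abundant transcripts already in WT. H2-K1 (ENSMUSG00000061232.15, chromosome 17, 33996017 to 34000347) was at 80.9, 81.2 and 87.1 CPM in WT, 102, 105 and 114 CPM in S1S2, and 478, 414 and 418 CPM in G9Gl. The S1S2 libraries stood slightly above WT without overlap, and the G9Gl libraries far above both. The log2 fold change was 0.37 in S1S2 (SE 0.058, adjusted p = 5.97e-05), which is 1.29-fold, and 2.39 in G9Gl (SE 0.076, adjusted p = 1.86e-15), which is 5.25-fold. H2-D1 (ENSMUSG00000073411.11, chromosome 17, 35262730 to 35267499) was at 69.1, 64.1 and 63.5 CPM in WT, 106.7, 106.02 and 108 CPM in S1S2, and 465, 394 and 412 CPM in G9Gl. It showed the same order of genotypes. Its log2 fold change was 0.71 in S1S2 (SE 0.039, adjusted p = 1.81e-08). In G9Gl H2-D1 was 6.46-fold higher than in WT (log2 fold change 2.69, SE 0.080, adjusted p = 2.19e-16), and both heavy chains were called higher in G9Gl against S1S2, by 2.03 and 1.99 on the log2 scale. Heavy chain genes resemble each other: 3.10% of the 75-base stretches of H2-K1 and 5.56% of those of H2-D1 occurred in other annotated genes, mostly class I genes and pseudogenes, so a small part of their counts is uncertain.

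B2m (ENSMUSG00000060802.8, chromosome 2, 122147686 to 122153083), the light chain common to all classical class I molecules, shared no 75-base stretch with another gene. Its level was 195, 172 and 204 CPM in WT, 210.1, 208 and 219 CPM in S1S2, and 689.7, 598 and 609 CPM in G9Gl. The S1S2 libraries lay just above the highest WT library. The difference from WT was 0.16 on the log2 scale in S1S2 (SE 0.078, adjusted p = 0.0421), short of the threshold, and 1.73 in G9Gl (SE 0.099, adjusted p = 2.57e-13), a 3.32-fold rise. The small S1S2 difference depended on single WT libraries: it was 0.21 without WT replicate 3 (adjusted p = 0.00781) and 0.089 without WT replicate 2 (adjusted p = 0.215), and the other 4 omissions gave adjusted p from 0.0715 to 0.122. The level per kilobase of H2-K1 plus H2-D1, divided by that of B2m, was 0.244 ± 0.0175 in WT, 0.316 ± 0.00326 in S1S2 and 0.426 ± 0.00267 in G9Gl (SD, n = 3). The 3 genotypes did not overlap in this ratio. The ratio was not tested.

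**Figure D2:**
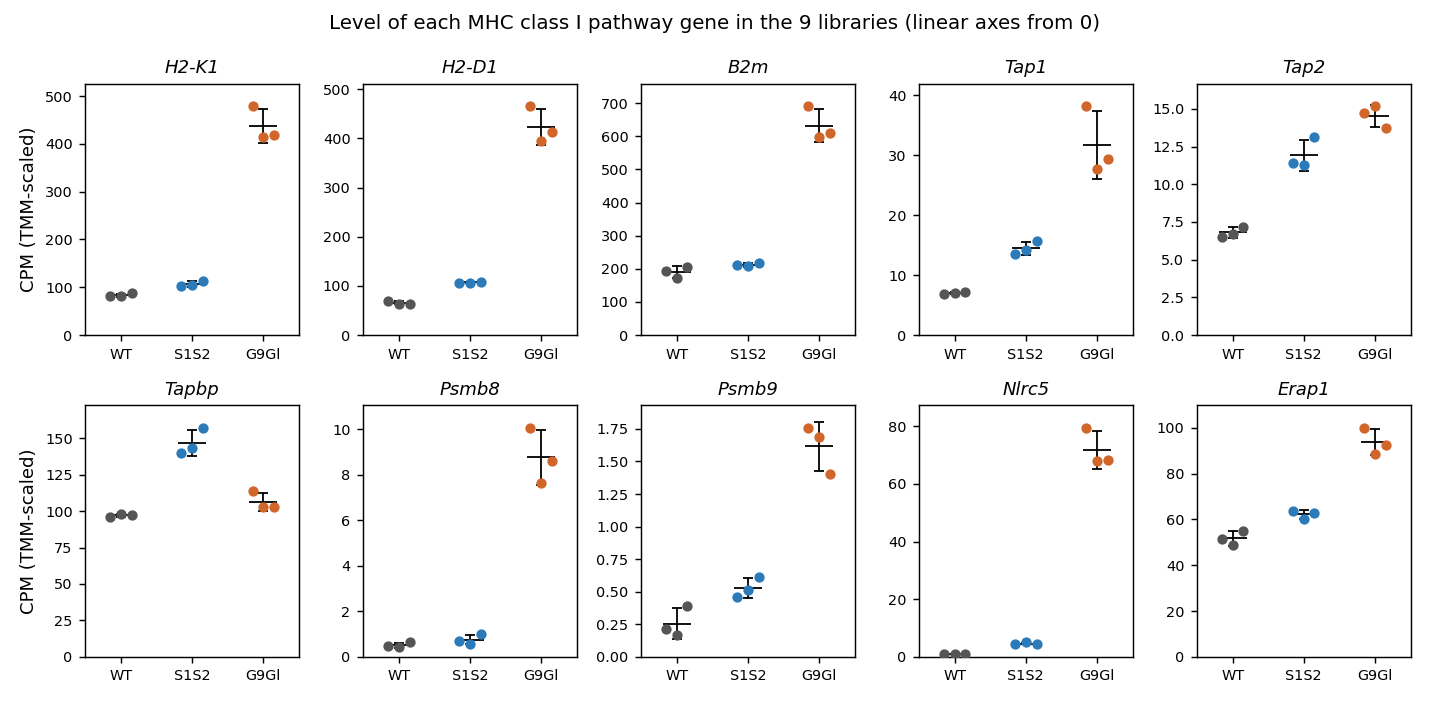
Level in CPM scaled by TMM factors (y axes, from 0) of each of the 10 genes in the 3 WT (grey), 3 S1S2 (blue) and 3 G9Gl (orange) libraries, with the mean and SD in black. The 3 G9Gl libraries lie above all other libraries for every gene but Tapbp, for which the S1S2 libraries, at 139.6 to 157 CPM, are the highest. The share of all tested genes with such an order of libraries was not counted.

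Genes of peptide transport and loading did not move together. Tap1 (ENSMUSG00000037321.17, chromosome 17, 34187553 to 34197225), one chain of the transporter, was at 6.83, 6.98 and 7.15 CPM in WT, 13.5, 14.2 and 15.6 CPM in S1S2, and 38.1, 27.7 and 29.3 CPM in G9Gl. It was called in both mutants. For S1S2 the rise was 2.07-fold, or 1.05 on the log2 scale (adjusted p = 1.19e-06, SE 0.064). For G9Gl it was 4.53-fold, or 2.18 (adjusted p = 2.41e-11, SE 0.143). Without replicate 3 of S1S2 the log2 fold change against WT was 0.99 and the fold change criterion was missed, and the same held without replicate 1 of G9Gl for the direct comparison of the mutants, which went from 1.13 to 0.98. Tap2 (ENSMUSG00000024339.12, chromosome 17, 34203527 to 34216321), the other chain, was at 6.52, 6.71 and 7.19 CPM in WT, 11.4, 11.3 and 13.1 CPM in S1S2, and 14.7, 15.2 and 13.7 CPM in G9Gl. The mutants were close to each other and both above WT, with log2 fold changes of 0.81 (S1S2, SE 0.082, adjusted p = 1.87e-06) and 1.09 (G9Gl, SE 0.059, adjusted p = 2.28e-08). The ratio of Tap1 to Tap2 per kilobase was 0.709 ± 0.0192 in WT, 0.837 ± 0.0297 in S1S2 and 1.51 ± 0.264 in G9Gl (SD, n = 3), without overlap between genotypes.

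Tapbp (ENSMUSG00000024308.14, chromosome 17, 33915899 to 33929292) had a pattern of its own among the 10 genes. Its level was 96.01, 97.8 and 97.3 CPM in WT, 139.6, 143.6 and 157 CPM in S1S2, and 114, 103 and 103 CPM in G9Gl. The S1S2 libraries were the highest, and the G9Gl libraries lay just above WT. The 1.51-fold rise of S1S2 passed the test (log2 fold change 0.60, SE 0.051, adjusted p = 4.24e-08). Relative to the heavy chains, Tapbp RNA was at 0.498 ± 0.0136 of the summed H2-K1 and H2-D1 level per kilobase in WT, 0.518 ± 0.0154 in S1S2 and 0.0937 ± 0.00254 in G9Gl (SD, n = 3). Of the 75-base stretches of Tapbp, 18.6% were shared with 3 other annotated genes, among them Zbtb22, which overlaps it on the same strand with 469 to 678 counts per library, against at least 2858 counts for Tapbp.

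Psmb8 and Psmb9 were at the edge of detection in WT and S1S2. Psmb8 (ENSMUSG00000024338.14, chromosome 17, 34197721 to 34201454) was at 0.461, 0.430 and 0.645 CPM in WT, 0.690, 0.583 and 0.988 CPM in S1S2, and 10.04, 7.65 and 8.58 CPM in G9Gl, from 13 to 21 counts per library outside G9Gl and 213 to 286 within it. WT and S1S2 overlapped (log2 fold change 0.53, SE 0.259, adjusted p = 0.168), and the G9Gl level was about 17 times that of WT (4.09, SE 0.195, adjusted p = 1.82e-11). Leaving out single libraries moved the S1S2 difference of Psmb8 between 0.30, without S1S2 replicate 3, and 0.72, without WT replicate 3, and it passed in none of the 6 omissions. Psmb9 (ENSMUSG00000096727.2, chromosome 17, 34181987 to 34187764) was at 0.215, 0.165 and 0.387 CPM in WT, 0.460, 0.510 and 0.611 CPM in S1S2, and 1.75, 1.69 and 1.40 CPM in G9Gl, on 5 to 14 counts per library outside G9Gl and 43 to 50 within it. The S1S2 libraries were above WT without overlap, but the difference did not pass (1.03, SE 0.302, adjusted p = 0.0358). In G9Gl the log2 fold change of Psmb9 was 2.63 (SE 0.298, adjusted p = 1.72e-06). Psmb9 overlaps Tap1 head to head on the opposite strand and shares 3.44% of its 75-base stretches with it. Tap1 had 211 to 1086 counts per library, and whether strand was used in counting is not given in the sources used here, so reads of the overlap cannot be told apart.

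Set against the constitutive subunits that they replace, Psmb8 and Psmb9 transcripts were a small fraction in every line. The level of Psmb8 per kilobase was 0.175 ± 0.0551% of that of Psmb5 in WT, 0.253 ± 0.0833% in S1S2 and 3.07 ± 0.508% in G9Gl (SD, n = 3). Psmb9 was at 0.0639 ± 0.0291% of Psmb6 in WT, 0.147 ± 0.0235% in S1S2 and 0.423 ± 0.0514% in G9Gl. These percentages depend on the length used: with the longest transcript in place of the merged exons Psmb8 was at 0.311% of Psmb5 in WT, 0.448% in S1S2 and 5.45% in G9Gl, and Psmb9 at 0.0419%, 0.0966% and 0.277% of Psmb6. Psmb10, the remaining inducible subunit gene, was of another order, at 31.3 ± 3.38% of Psmb7 in WT, 44.8 ± 2.34% in S1S2 and 47.97 ± 1.98% in G9Gl. Psmb10, on a pathway list beside the 10 genes, rose by 0.57 on the log2 scale in G9Gl (adjusted p = 3.62e-06) and by 0.46 in S1S2 (adjusted p = 4.71e-05).

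**Figure D3:**
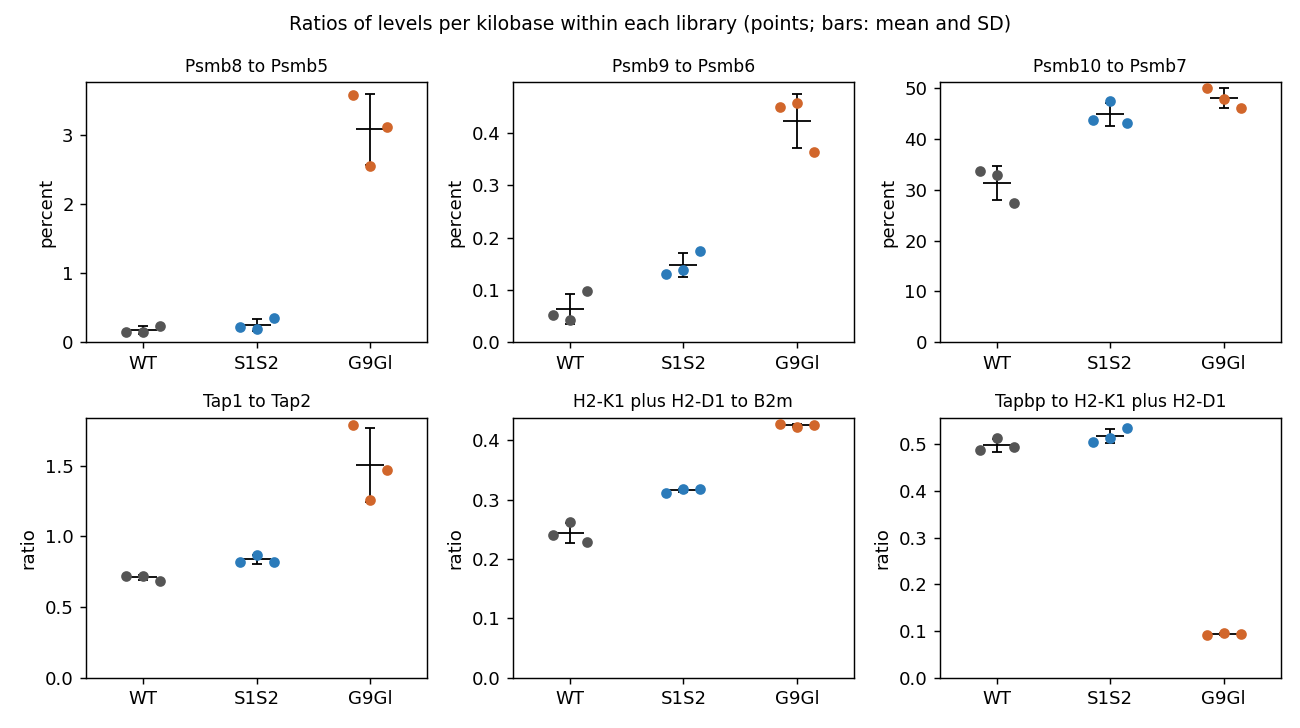
Ratios of levels per kilobase within each library (y axes, from 0, in percent in the upper row and as plain ratios in the lower row) for WT (grey), S1S2 (blue) and G9Gl (orange), with mean and SD in black. Psmb8 reaches about 3.07% of Psmb5 in G9Gl (5.45% with the longest transcript as length). The ratio of Tapbp to the summed heavy chains was 0.498 in WT and 0.0937 in G9Gl, while Tapbp RNA itself did not fall.

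Erap1 (ENSMUSG00000021583.6, chromosome 13, 74639568 to 74693201), the aminopeptidase that trims peptides in the endoplasmic reticulum, was at 51.6, 48.6 and 54.9 CPM in WT, 63.8, 60.1 and 62.7 CPM in S1S2, and 99.8, 88.5 and 92.6 CPM in G9Gl. The genotypes did not overlap. Erap1 was 1.20-fold higher in S1S2 than in WT (adjusted p = 0.000916, log2 fold change 0.27, SE 0.057). It was 1.81-fold higher in G9Gl (0.86, SE 0.072, adjusted p = 8.72e-10), which is below the fold change criterion. The neighbouring gene Cast overlaps its end on the opposite strand with 3807 to 4957 counts per library, and 10.4% of the Erap1 75-base stretches were shared with it.

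Levels can be compared between genes per kilobase of exon. In WT the order was B2m (221 CPM per kilobase), H2-K1 (28.3), Tapbp (26.8), H2-D1 (25.4), Erap1 (7.10), Tap2 (1.8), Tap1 (1.28), Psmb8 (0.151), Nlrc5 (0.106) and Psmb9 (0.0699). Tapbp and H2-D1 overlapped in this order, as did Nlrc5 and Psmb9. In G9Gl, Nlrc5 moved up to the 6th place with 8.45 CPM per kilobase, above Tap1 (5.79) and Tap2 (3.85), while H2-D1 (164) and H2-K1 (149) overlapped in the places after B2m (735). In S1S2 the places of H2-D1 (41.5), Tapbp (40.4) and H2-K1 (36.5) overlapped with their neighbours. With the longest transcript in place of the merged exons, H2-K1 stood ahead of H2-D1 and Tapbp in all 3 genotypes, Tap1 ahead of Tap2 in S1S2, and Psmb8 ahead of Tap2 in G9Gl, so these orders depend on the length used.

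Over the 9 libraries the log2 levels of 9 of the genes ran together, with Pearson correlations from 0.75 to 1.00 between any of them, while those of Tapbp with the other 9 ranged from -0.21 to 0.46. These are descriptions over 9 libraries that fall into 3 genotypes, and they mostly repeat the differences between genotypes. The genes outside all lists with a profile most like the mean of the 10, among those with a mean of at least 5 CPM, were Trim12c (Pearson r = 0.998 over 9 libraries), Igtp (0.997), Oas1a (0.996), Ccdc91 (0.995) and Oas2 (0.995). Igtp, Oas1a and Oas2 are known as interferon-induced genes. Oas1a was at 0.128 ± 0.0637 CPM in WT, 1.89 ± 0.284 CPM in S1S2 and 32.4 ± 5.69 CPM in G9Gl (SD, n = 3). Igtp was at 2.04 ± 0.258, 5.32 ± 0.805 and 22.9 ± 3.92 CPM.

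The other genes of the pathway, 75 on 7 lists that were set up beside the 10 genes, moved less as a whole. Of the 59 that were tested, 9 were called higher and none lower in G9Gl against WT (11 were lower at an unadjusted p under 0.05, and DESeq2 also called none), and 3 were called higher and 2 lower in S1S2. The called shares of the 59 were 15.3% higher in G9Gl, against 6.77% of all tested genes, and 5.08% higher and 3.39% lower in S1S2, against 4.66% and 4.34%. Their median log2 fold change was 0.04 in each mutant. In G9Gl 17 rose and 8 fell, and in S1S2 15 rose and 10 fell, at the adjusted p alone. As shares of the 59 these are 28.8% and 13.6% in G9Gl and 25.4% and 16.9% in S1S2, where 19.0% and 16.0%, and 20.3% and 17.6%, of all tested genes rose and fell.

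Most of the called genes were other class I and class I-like heavy chains, of which 18 of 19 listed were in the table and 9 were tested. In G9Gl 6 of these 9 were called higher (66.7%, against 6.77% of all tested genes), with a list median of 1.36. In S1S2 2 were called higher and 2 lower (22.2% each, against 4.66% and 4.34%). H2-T10 had 9 to 12 counts per library in WT, 1 to 3 in S1S2 and 70 to 97 in G9Gl. It passed the filter on low counts through G9Gl alone, so its call and its part in the median are not independent of the filter. Chains that were not tested are left out of these shares. H2-Q4 went from 7.58 ± 0.732 CPM in WT and 8.19 ± 1.42 CPM in S1S2 to 63.0 ± 8.27 CPM in G9Gl (log2 fold change against WT 3.05, adjusted p = 1.99e-13). H2-M3, which presents formylated peptides, went from 2.16 ± 0.236 and 2.11 ± 0.344 CPM to 12.3 ± 1.54 CPM (2.51, adjusted p = 8.25e-11). Between S1S2 and WT the log2 differences of H2-Q4 and H2-M3 were 0.11 and -0.05 and did not pass (adjusted p = 0.522 and 0.849). H2-T24 rose in both mutants, with log2 fold changes of 1.58 (S1S2, adjusted p = 0.00488) and 3.35 (G9Gl, adjusted p = 1.93e-07), from 3 to 6 counts per library in WT. H2-T23, whose product Qa-1 presents leader peptides of other class I chains, likewise rose in both, with 1.17 (S1S2, adjusted p = 1.07e-08) and 1.36 (G9Gl, adjusted p = 7.79e-10).

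H2-T10 had 31 counts in the 3 WT libraries together, 7 in S1S2 and 263 in G9Gl. Scaled for depth, the G9Gl level was 9.15 times that of WT (95% counting interval 6.29 to 13.7, which covers counting error only). No fold is given against S1S2, where each library had 1 to 3 counts. The sixth gene called higher in G9Gl was H2-T22 (log2 fold change 1.23, adjusted p = 3.20e-12), which, like Fcgrt, is named to complete a count after its value was seen. In S1S2 the 2 genes called lower were Mr1 and Fcgrt. Mr1, which presents vitamin metabolites to MAIT cells, was at 12.7 ± 1.95 CPM in WT, 3.57 ± 0.0702 CPM in S1S2 and 13.99 ± 1.097 CPM in G9Gl, a log2 fold change of -1.83 in S1S2 (adjusted p = 2.26e-09). Its G9Gl difference from WT was 0.14 and did not pass (adjusted p = 0.287). Fcgrt, the neonatal Fc receptor, had -1.09 in S1S2 (adjusted p = 1.29e-07) and also fell in G9Gl (-0.66, adjusted p = 2.03e-05). Class I chains are near-identical in places, so counts of these chains are uncertain, among them those of low members such as H2-T24 and H2-T10. Shared 75-base stretches were counted for the 10 genes only. H2-K1 shared some with H2-Q10, and H2-D1 with H2-T23. How far reads of H2-K1 and H2-D1 were counted for other chains was not tested.

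**Figure D4:**
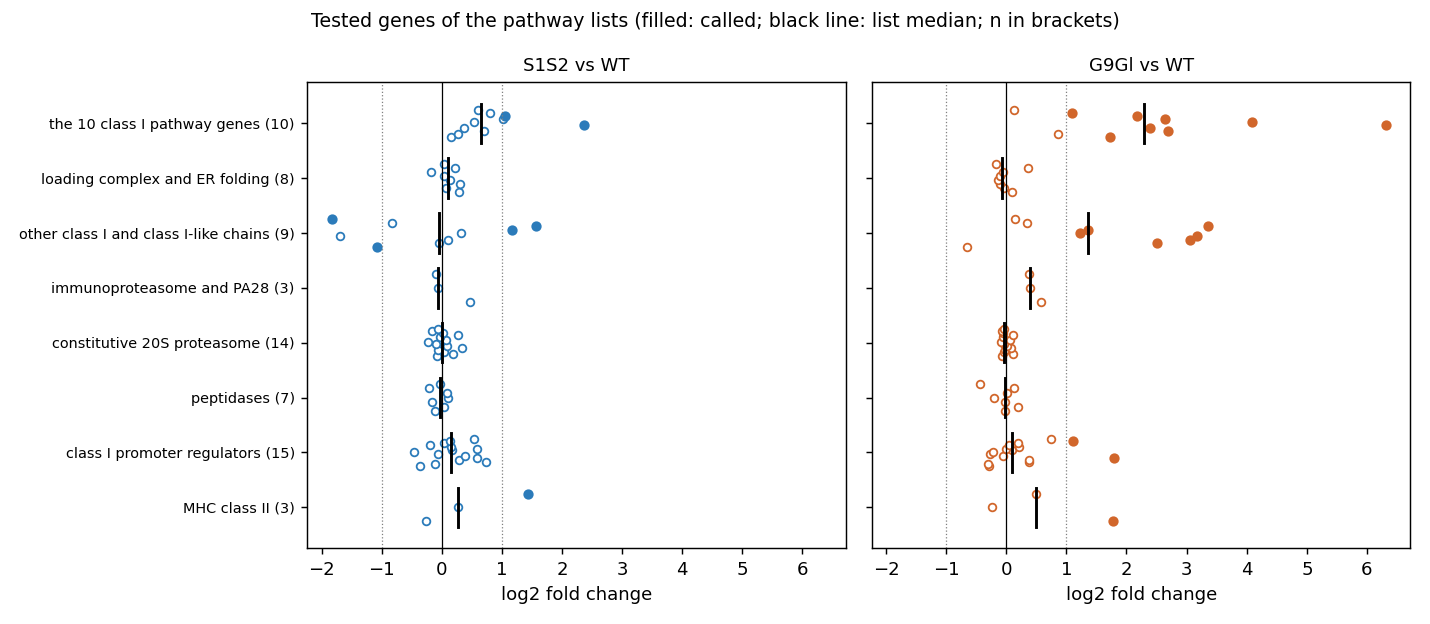
Log2 fold change (x axes) of the tested genes of each list (rows, with the number tested in brackets) in S1S2 (left, blue) and G9Gl (right, orange) against WT, with filled points for called genes, a black line at each list's median and dotted lines at a fold change of 2. The medians of the 10 genes (2.29) and of the other class I chains (1.36) lie apart from 0 in G9Gl, while the constitutive proteasome genes cluster around 0.

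Other steps of the pathway are covered by 4 lists. None of the 14 genes of the constitutive 20S proteasome passed the adjusted p in G9Gl by edgeR or DESeq2, 2 were higher at an unadjusted p under 0.05, and their log2 fold changes ran from -0.09 to 0.11. In S1S2 3 of them rose and 2 fell (21.4% and 14.3%, against 20.3% and 17.6% of all tested genes). All 3 genes of the list of Psmb10 and the proteasome activator PA28 rose in G9Gl, with 0.40 for Psme1 and 0.38 for Psme2, and none reached a 2-fold change. Of 8 genes for the loading complex and folding in the endoplasmic reticulum, 1 rose and 1 fell in G9Gl and 2 rose and 1 fell in S1S2, and of 7 peptidases 1 rose and 2 fell in G9Gl and 2 fell in S1S2. Of the 32 genes of these 4 lists none was called in either mutant by edgeR or DESeq2, while at an unadjusted p under 0.05 there were 8 higher and 6 lower in G9Gl and 9 higher and 5 lower in S1S2. At the adjusted p, 5 of the 32 rose and 3 fell in G9Gl (15.6% and 9.38%), and 6 rose and 5 fell in S1S2 (18.8% and 15.6%), each below the share over all tested genes given above.

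Among 15 factors known to act at class I promoters was Irf9, an interferon-activated transcription factor subunit, which was called higher in G9Gl. Irf9 went from 17.1 ± 1.23 CPM in WT and 25.8 ± 1.18 CPM in S1S2 to 59.7 ± 8.14 CPM in G9Gl (SD, n = 3, log2 fold change against WT 1.799, adjusted p = 1.11e-11). In all, 5 of the 15 rose and 4 fell in G9Gl, and 5 rose and 2 fell in S1S2. That is 33.3% and 26.7% of the 15 in G9Gl, against 19.0% and 16.0% of all tested genes, and 33.3% and 13.3% in S1S2, against 20.3% and 17.6%. The class II pathway, which serves antigen presentation to helper T cells, was nearly silent: the 9 genes summed to at most 5.26 CPM, and H2-Aa, H2-Ab1 and H2-Eb1 had at most 3 counts in any library. Within it Cd74, the invariant chain, was called higher in G9Gl (0.951 ± 0.187 CPM in WT and 3.25 ± 0.727 CPM in G9Gl, log2 fold change 1.77, adjusted p = 4.95e-06), and H2-DMb1 in S1S2 (1.44, adjusted p = 0.000366).

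Of the 10 genes, 7 lie in the H2 complex on chromosome 17, in an interval of 1351601 bases from the start of Tapbp to the end of H2-D1 that also holds Ehmt2, a gene edited in G9Gl. Ehmt2 (34898469 to 34914052) is 349 kb from H2-D1 and 682 kb from Tap2, the nearest of the genes on the other side. Of the 139 other genes of the interval 63 were tested, and their median log2 fold change was -0.02 in G9Gl and 0.00 in S1S2. In G9Gl 1 of them was called higher, Gpsm3 (2.38), and 4 were called lower, namely Ehmt2, Tnxb, Hspa1b and Col11a2. In S1S2 5 were called higher, namely Hspa1a, Hspa1l, Tnxb, H2-DMb1 and the class I-like gene H2-K2, and 1 lower, the complement gene C2. Of the 63, 1.59% were thus called higher and 6.35% lower in G9Gl, against 6.77% and 3.40% of all tested genes, and 7.94% higher and 1.59% lower in S1S2, against 4.66% and 4.34%. These neighbours are named for completeness after their values were seen. The 3 genes on other chromosomes, B2m, Nlrc5 and Erap1, rose in G9Gl as well.

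**Figure D5:**
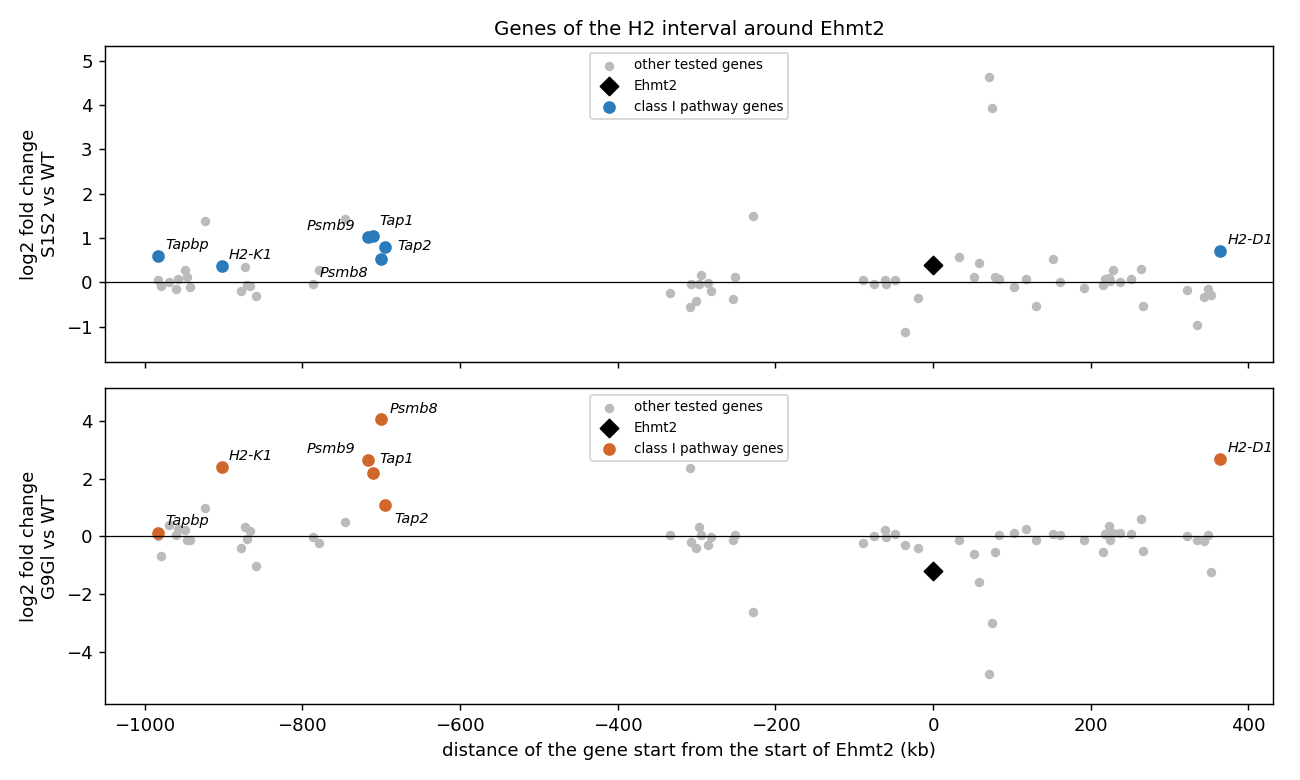
Log2 fold change against WT in S1S2 (upper panel) and G9Gl (lower panel) of the tested genes between Tapbp and H2-D1 on chromosome 17, placed by the distance in kb of their annotated start from that of Ehmt2 (black diamond). The class I pathway genes (coloured) lie between 0.13 (Tapbp) and 4.09 (Psmb8) in G9Gl, and most of the 63 other genes (grey) lie near 0.

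The spaced pair of TGACG and ATTGG printed above was found in 3 of the 8 windows of these genes, and over all RefSeq windows in 27 of 27025 genes (0.0999%). The spacing was set after the windows of H2-K1 and B2m had been read, so their matches were fixed in advance. H2-D1 was identical to H2-K1 at 13 of the 20 bases between the cores. These shares are therefore no test of enrichment. The single cores were common, at 23.1% of genes for TGACG and 41.1% for ATTGG, and were present in 5 and 6 of the 8. Of the 24 further genes with the spaced pair 17 were tested, and 1 of them, H2-M3, was called higher in G9Gl, which is 5.88% against 6.77% of all tested genes. At the adjusted p 3 of the 17 rose and 4 fell in G9Gl (17.6% and 23.5%, against 19.0% and 16.0% of all tested genes), and none was called lower by edgeR or DESeq2 (4 were lower at an unadjusted p under 0.05). In S1S2 none was called higher by edgeR or DESeq2 (4 were higher at an unadjusted p under 0.05) and 1 was called lower (5.88%, against 4.34%), while 3 rose and 4 fell (17.6% and 23.5%, against 20.3% and 17.6%). Their median log2 fold change in G9Gl was 0.06. The kappaB letters GGGATTCCC occurred in H2-K1 and H2-D1 and in 0.414% of all genes. The core AANNGAAA occurred in H2-K1, H2-D1, B2m and Erap1 and in 26.7% of all genes, the longer core GAAANNGAAA in B2m and Erap1 and in 3.99% of all genes, and the interferon gamma-activated core TTCNNNGAA in Psmb8 and in 9.55% of all genes. The windows of Tap1 and Psmb9 overlap, since the genes start close together in opposite directions, so their matches to TGACG are one and the same site, as are their matches to ATTGG.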

How the data were processed

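Total RNA of 9 MEF cultures (3 WT, 3 S1S2, 3 G9Gl) was sequenced as stranded paired-end libraries. The table the authors deposited holds whole-number counts, not normalized, with Ensembl gene identifiers. Per the study's methods and processing notes, the authors aligned reads to GRCm38 with STAR 2.5.2b and counted genes with TEtranscripts under multimapper settings, so reads of near-identical genes may be shared. Of 47937 genes, 47224 were matched by identifier to GENCODE M21. Repeats were not analysed here.

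Counts were analysed with edgeR 4.0.16 in R 4.3.3 (TMM factors, filterByExpr, glmQLFit, glmQLFTest) with all 9 libraries in a single fit and a coefficient per genotype. Calls required a fold change of 2 or more and an adjusted p (Benjamini-Hochberg) up to 0.01. Levels are TMM-scaled CPM, given as mean ± SD. Standard errors come from the spread of log2 CPM with a prior count of 2. The biological coefficient of variation was 5.36%. Gene length is merged exons. A count of 3 or fewer per library was taken as the floor. Reads carry no molecular identifiers, so counting intervals cover counting error only.

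The 10 genes and the lists were chosen with earlier results of these data known. By the naming rule, each pathway list gives up to 3 called genes per comparison with the largest log2 fold change and no overlap between libraries, and genes named beyond that are said to be so or complete a list. Some genes of the lists are not reported here by name, though list counts include them. Replicate pairs differed by more than counting noise (chi-square per degree of freedom 2.68 to 25.6), so none was merged. The code was tested on simulated data, and DESeq2 1.42.0 and the other alternatives are given in the closing section.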

Additional observations from a re-analysis of the deposited data

Results flagged for a closer look

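For 9 of the 10 genes the mutant lines differed in a direct test of G9Gl against S1S2 (edgeR, adjusted p of at most 0.01), where 21.6% of all tested genes were higher and 21.1% lower in G9Gl by the same rule. The log2 difference was 2.03 for H2-K1, 1.99 for H2-D1, 1.57 for B2m, 1.13 for Tap1, 3.56 for Psmb8, 1.61 for Psmb9, 3.95 for Nlrc5 and 0.59 for Erap1, all higher in G9Gl, with no overlap between the 3 libraries of each line. For Tapbp it was -0.46, with all 3 S1S2 libraries above all 3 G9Gl libraries. The share of all tested genes without overlap between the lines was not counted.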

How the results depend on the processing

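No log2 fold change of the 10 genes reversed under the alternatives run, and the called genes, the 10 genes called and the pathway genes called stayed within 1.5 times their main number with DESeq2, with DESeq2 size factors, without a composition factor, without a filter, with only the lines compared, and with chromosome medians removed. At least 10 counts in every library left 728, 682 and 962 genes called in the comparisons of S1S2 and G9Gl with WT and of G9Gl with S1S2, since fewer genes were tested. Psmb9 was then not tested, and 2, 7 and 6 of the 10 genes were called. An adjusted p of 0.05 without a fold change criterion gave 7599, 7138 and 8288 genes, 31, 29 and 37 pathway genes, and 9 of the 10 genes in S1S2 against WT. A test against a 2-fold change (glmTreat) gave 735, 1045 and 1341 genes, 1 and 5 pathway genes in S1S2 against WT and G9Gl against S1S2, and 1 (Nlrc5), 7 and 5 of the 10 genes in the 3 comparisons. Leaving out each library in turn gave 1296 to 1426, 1515 to 1599 and 1981 to 2076 genes. Of the 10 genes, 1 to 2 were then called in S1S2 against WT, the lower number without S1S2 replicate 3, 8 in G9Gl against WT and 6 to 7 in G9Gl against S1S2, where Tap1 fell short without G9Gl replicate 1. With the longest transcript as length the levels per kilobase moved, and so did the order of some genes: H2-K1 was at 57.2 against 50.9 CPM per kilobase for H2-D1 in S1S2 and 233 against 202 in G9Gl, where merged exons gave 36.5 against 41.5 and 149 against 164.

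Replicate numbers did not pair the libraries: the correlation of same-numbered deviations averaged 0.048, 0.043 and -0.054 in the 3 comparisons. With a replicate block in the fit, 1383, 1568 and 2022 genes and 2, 8 and 7 of the 10 genes were called. Among the 10 genes depth limits Psmb8 and Psmb9 most, with 5 to 21 counts per library outside G9Gl.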
